A study of Saccharomyces cerevisiae with 4 samples.

Results

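Sporulation was carried out in 2 separate runs, and the comparison described here is the second run against the first, made across all genes and required to point the same way in red and in non-red spores. All 4 libraries of the series entered it: 1 red and 1 non-red library from the first run and 1 of each from the second. The sample labels give only a replicate number, and it is the study's methods that say sporulation and sorting were done again. No treatment distinguishes the runs.

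All libraries came from the same diploid Saccharomyces cerevisiae of the SK1 background, in which both copies of IME1, the master regulator of entry into meiosis, are driven by the CUP1 promoter (PCUP1-IME1) and switched on with copper sulfate. One chromosome carried a cassette at MATa with mCherry, a red fluorescent protein, under the GPD1 promoter and hph, a hygromycin resistance gene. After 7 days of sporulation the asci were digested and the haploid spores were sorted by flow cytometry into red (RFP_positive) and non-red (RFP_negative) fractions, so that the red spores are those that received the cassette. Poly(A)-directed libraries were prepared from 100 ng of total RNA each, although the series description speaks of rRNA-depleted RNA. Both libraries of a run came from 1 sporulation. The p-values below therefore rest on how far the run ratios of red and non-red spores disagree, with the spread shared across genes. They do not measure the spread between sporulations. A difference between 2 cultures, 2 sorts or 2 library preparations cannot be told apart from any other difference between the runs. The strain entries in the labels give MATalpha for both red libraries and for the second non-red one and MATa for the first non-red one, so libraries were grouped by colour and replicate number only.

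A spore is a dormant haploid cell in a thick, resistant wall. During starvation yeast lowers the synthesis of ribosomes under the control of the TOR and protein kinase A pathways, stores the sugars trehalose and glycogen, and raises stress proteins through Msn2 and Msn4, which bind the stress response element. Amino acid synthesis is governed largely by Gcn4, a transcription factor made when amino acids are scarce. Genes of these pathways were among the 60 lists counted here, which also covered other functions.

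The libraries held 35937755 (red) and 45697828 (non-red) reads in the first run and 27468051 and 25493760 in the second, so the second run was the shallower in both colours. Values are given as normalised CPM, the estimated reads of a gene scaled to the size and composition (TMM) of its library, and a log2 fold change is always the second run over the first. IME1 stood at 1149 (red) and 806 (non-red) CPM in the first run and at 2656 and 2911 in the second, with no overlap (log2 fold change 1.53 ± 0.21 (SE), adjusted p = 0.00173). The 2 copies of CUP1 were listed at 0 in every library, but the copies are identical in sequence and how reads shared between copies were counted is not given in the sources used here. mCherry held 217 and 514 CPM in the red libraries against 12.5 and 0 CPM in the non-red ones, where the count of 0 allows up to 0.116 CPM, and hph held 1989 and 2415 against 98.6 and 37.7 CPM. Of 16 genes fixed as spore markers, 14 or 15 had reads in each library and their summed level was 2396 to 2576 CPM in the first run and 3131 to 3537 CPM in the second, most of it from SPS100, a late spore wall gene. Most other spore markers were low, with a median of 10.4 to 20.1 CPM. The 36 markers of proliferating cells summed to 3729 and 3814 CPM in the first run and to 3009 and 2712 CPM in the second, and every one had reads in at least 3 libraries. The summed spore marker level, which SPS100 sets, was higher in the second run in both colours, but the median spore marker went from 14.8 to 20.1 CPM in red and from 11.3 to 10.4 CPM in non-red spores. The proliferating cell sum was lower in both colours. Its most abundant member, HTB1, went from 966 to 638 CPM in red and from 1000 to 536 CPM in non-red spores. The median proliferating cell marker went from 76 to 51.3 CPM in red and from 74.3 to 45.5 CPM in non-red spores. Of the 36, 24 had a negative and 12 a positive log2 fold change. The part of either marker list in the results below was not tested.

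Of 6140 genes tested, 1156 (18.8%) differed between the runs with a Benjamini-Hochberg adjusted p (FDR) below 0.05 in the quasi-likelihood test of edgeR. The test was fitted with spore colour as a block. A call also needed the same direction in the red and the non-red pair. That rule removed none of these genes, but the test itself already counts disagreement between the pairs as spread. In the second run 550 genes were higher (8.96% of those tested) and 606 were lower (9.87%). The median log2 fold change over all genes was -0.02, that of the genes called higher was 1.31 and that of the genes called lower was -1.54. Among the calls, 77 genes were at least 4-fold higher and 160 at least 4-fold lower. An exact permutation of 2 libraries against 2 cannot give a two-sided p under 0.333, and the calls rest on a spread that is shared across genes. Without the non-red library of the first run the number of calls was 598. Normalised CPM is relative to the other RNA of a library and is not an amount per cell. In bulk RNA a lower level may mean fewer cells of a type or less RNA of a gene per cell, and these cannot be told apart.

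A second rule used no test and asked for at least a 2-fold difference in each pair, after adding 0.5 CPM to every value. By that rule 432 genes (7.04%) were higher and 622 (10.1%) lower in the second run, and 743 genes met both rules. The 2 pairs use different libraries of the same 2 sporulations, so a difference between cultures or batches would appear in both. Of 802 genes at least 2-fold higher in the red pair, 654 (81.5%) were also higher in the non-red pair, where 49.5% of all genes were higher, and their median log2 ratio there was 1.08. Of 1019 genes at least 2-fold lower in the red pair, 853 (83.7%) were lower in the non-red pair, with a median of -1.37. Chosen in the non-red pair and read in the red one, 817 of 989 genes (82.6%) were higher and 996 of 1206 (82.6%) were lower. Over all 6140 genes 4434 (72.2%) had the same sign in both pairs, and the log2 ratios of the pairs had a Pearson r of 0.492, given as a description, since genes of 1 library are not independent of each other. Within a run the colours were closer: 88.6% of genes in the first run and 84.5% in the second differed by less than 2-fold between red and non-red spores, against 70.3% (red) and 64.3% (non-red) between the runs.

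**Figure D1:**
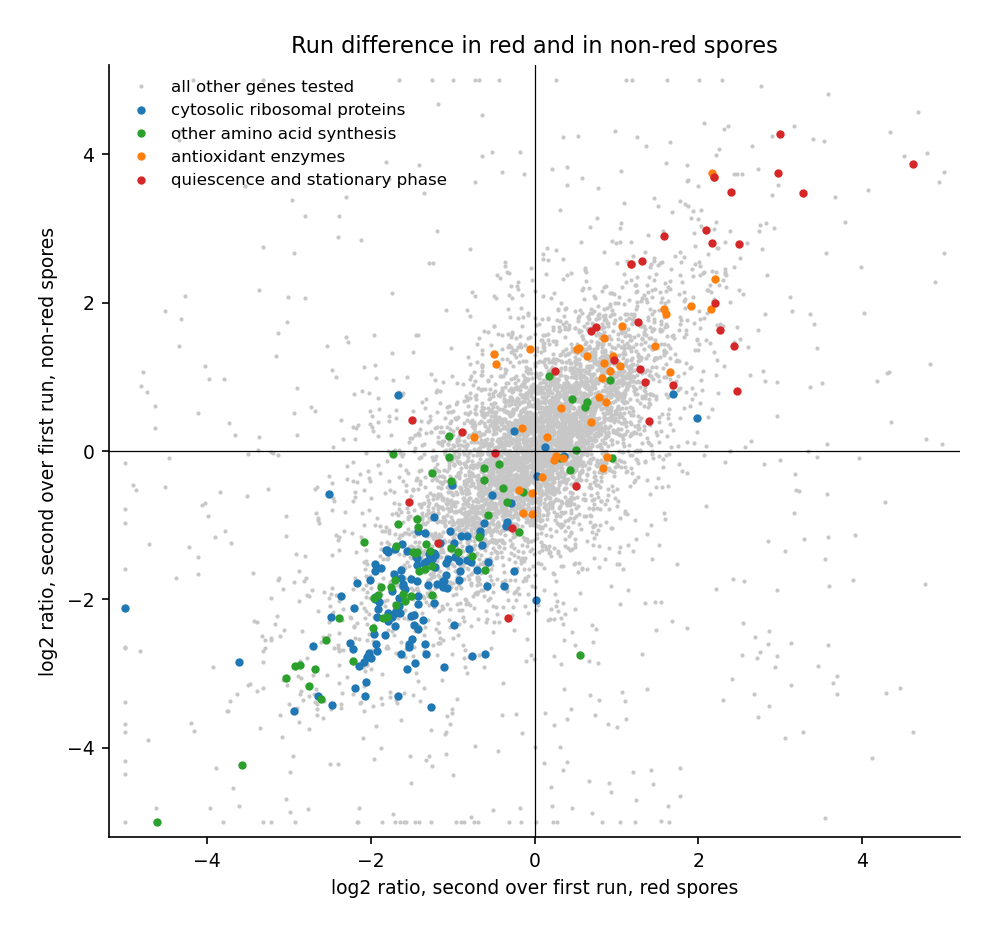
Log2 ratio of the second over the first run for each gene tested, in red spores (x axis) and in non-red spores (y axis), after adding 0.5 CPM and with values beyond 5 drawn at the edge. Members of 4 lists are coloured: ribosomal protein and amino acid synthesis genes lie mostly at the lower left, where both pairs fell, and quiescence and antioxidant genes mostly at the upper right.

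Cytosolic ribosomal protein genes were mostly lower in the second run. Of 137 cytosolic ribosomal protein genes tested, 118 were called lower and the other 19 were not called, and 100 were at least 2-fold lower in both pairs. Their median log2 fold change was -1.67 (-1.44 in the red pair and -1.79 in the non-red pair). Because many ribosomal proteins come as near-identical gene pairs between which reads can be split, the 116 members with under 20% of repeated sequence were counted separately, and 101 of these were lower. RPS0A, a small subunit protein, stood at 808 and 939 CPM (red and non-red, here and below) in the first run and at 104 and 82.7 CPM in the second (log2 fold change -3.23 ± 0.24, adjusted p = 0.000147). RPS12, RPS15 and ASC1, the ribosome-bound scaffold protein, fell by 2.98, 2.16 and 2.67 on the log2 scale, and in each the 2 libraries of the first run lay above those of the second. RPS31, which encodes a ubiquitin fused to a ribosomal protein and had the highest level of the group, went from 1110 and 1346 CPM to 312 and 240 CPM. The member furthest in the other direction, RPL22A, had 1.61 to 6.64 CPM and no call (adjusted p = 0.771). The 78 tested ribosomal proteins of the mitochondria had a median of 0.29, with 2 called higher.

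Fewer of the genes that build ribosomes were called. Of 148 ribosome biogenesis factors, 42 were lower and 1 was higher, with a median of -0.78, and the same list had 60 lower genes in the likelihood ratio test and 52 in DESeq2. REA1, an ATPase that remodels pre-60S particles, stood at 401 and 531 CPM in the first run and at 116 and 84.2 CPM in the second (-2.23 ± 0.28, adjusted p = 0.00101). UTP20, a component of the small subunit processome, went from 436 and 381 to 125 and 94.2 CPM, and RRB1, a chaperone of ribosomal protein L3, from 254 and 293 to 59 and 80.8 CPM. The RNA helicase DBP2 had the highest level of the list, at 812 and 1049 CPM in the first run and 315 and 340 CPM in the second (adjusted p = 0.00136). TSR3, which modifies 18S rRNA, was the 1 gene that rose (101 and 91 to 162 and 228 CPM, adjusted p = 0.04). Among 26 subunits of RNA polymerases I and III, 4 were lower, with a median of -0.77. RPA190 and RPA135, the largest subunits of RNA polymerase I, fell from 441 and 439 to 97.3 and 87.8 CPM and from 359 and 333 to 119 and 115 CPM. RPO31, the largest subunit of RNA polymerase III, fell by 0.98 on the log2 scale (adjusted p = 0.0182). IFH1, a coactivator of ribosomal protein genes, was named after its values were seen and went from 286 and 347 to 128 and 136 CPM (-1.26 ± 0.24, adjusted p = 0.0073).

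Translation factors were called in both directions. Of 41 tested, 12 were lower (29.3%) and 3 higher (7.32%), with a median of -0.37. Over all genes 9.87% were lower and 8.96% higher. The median level of these factors, 221 CPM, lies in the most abundant of 5 bins of all genes. In that bin 24.8% were called lower and 24.5% higher. YEF3, the fungal elongation factor 3, was among the 12 genes with the smallest p of those that fell, at 4924 and 6741 CPM in the first run and 897 and 1075 CPM in the second (-2.55 ± 0.17, adjusted p = 0.000128). Its paralog HEF3, which is little used in growing cells, rose from 312 and 212 to 821 and 1077 CPM (1.87 ± 0.26, adjusted p = 0.00171). DBP1, a helicase related to the initiation factor Ded1, rose from 91.7 and 106 to 520 and 478 CPM. TEF1 and EFT1, copies of the genes for elongation factors 1A and 2, fell by 1.08 and 1.66 on the log2 scale, and reads of each cannot be separated from those of its near-identical copy. Of 19 cytosolic aminoacyl-tRNA synthetases, 14 were lower and the others were not called, with a median of -1.27. DED81, which charges asparagine tRNA, went from 577 and 511 to 142 and 111 CPM, and FRS1, a subunit of the phenylalanine enzyme, from 272 and 308 to 52.6 and 63.3 CPM. GLN4 moved furthest the other way, from 69.7 and 86.9 to 91.5 and 116 CPM, without a call (adjusted p = 0.419).

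Most genes of amino acid synthesis were lower. Of 65 genes of amino acid pathways other than arginine and methionine, 42 were lower and ALT2, an alanine transaminase homolog, was higher (251 and 208 to 476 and 404 CPM, adjusted p = 0.0154). The median was -1.33. ASN1, an asparagine synthetase, stood at 3641 and 5374 CPM in the first run and at 148 and 151 CPM in the second (-4.88 ± 0.23, adjusted p = 3.25e-05). BAT1, the mitochondrial branched-chain aminotransferase, went from 6574 and 7578 to 798 and 912 CPM, and GDH1, which makes glutamate from ammonium, from 4360 and 5913 to 645 and 660 CPM. HIS4, LYS1 and HOM2, enzymes of the histidine, lysine and threonine-methionine pathways, fell by 2.92, 2.88 and 3.07 on the log2 scale. LEU1 and ILV5, of leucine and branched-chain synthesis, were among the 5 most abundant transcripts over all libraries. LEU1 fell from 8927 and 9764 to 2745 and 2920 CPM and ILV5 from 8131 and 9158 to 2158 and 2395 CPM.

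Arginine genes held the smallest p of all. ARG1, argininosuccinate synthetase, stood at 5594 and 6592 CPM in the first run and at 226 and 234 CPM in the second, a 26.4-fold fall (-4.72 ± 0.19, adjusted p = 2.15e-05). ARG56, which encodes enzymes of consecutive steps of ornithine synthesis, went from 4948 and 5425 to 668 and 661 CPM, and ARG8 and ARG4 fell by 3.33 and 2.49 on the log2 scale. CPA1, the small subunit of carbamoyl phosphate synthetase, fell less (6246 and 5054 to 2195 and 2090 CPM). Of 22 arginine genes 11 were lower and 4 higher. The largest rise was in ARG82, an inositol polyphosphate kinase that also regulates arginine genes (26.9 and 37.2 to 96.6 and 77.7 CPM, adjusted p = 0.0435). In methionine synthesis and sulfate assimilation 11 of 38 genes were lower (28.9%) and 2 higher (5.26%), with a median of -0.33. Over all genes 9.87% were lower and 8.96% higher. The median level of the 38, 274 CPM, lies in the most abundant of 5 bins of all genes, where 24.8% were called lower. MET6, methionine synthase and the most abundant of the 38, was at 2251 and 2740 CPM in the first run and 2315 and 2956 CPM in the second (adjusted p = 0.815), while CYS4, which makes cystathionine, rose from 383 and 415 to 794 and 803 CPM. GCN4 itself, named after its values were seen, stood at 2992 and 3375 CPM in the first run and at 978 and 891 CPM in the second (-1.77 ± 0.19, adjusted p = 0.000508).

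Some genes of nitrogen uptake and nucleotide synthesis were lower. Of 46 genes of nitrogen uptake and catabolism, 18 were lower and 2 higher, with a median of -0.83. The ammonium permease MEP2 stood at 1956 and 4362 CPM in the first run and at 152 and 187 CPM in the second (-4.12 ± 0.27, adjusted p = 0.000112), and MEP1 went from 753 and 937 to 142 and 149 CPM. BAP2 and AGP1, amino acid permeases, fell by 1.54 and 2.52 on the log2 scale. UGA2, an enzyme of 4-aminobutyrate breakdown, rose from 213 and 137 to 519 and 456 CPM. In purine, pyrimidine and one-carbon synthesis 10 of 32 genes were lower and MTD1, a folate dehydrogenase, was higher (adjusted p = 0.0138). URA2, the first enzyme of pyrimidine synthesis, went from 3278 and 3095 to 786 and 794 CPM. Of 36 mannoproteins of the vegetative cell wall, 14 were lower and 2 higher, with a median of -0.84. CCW14 fell from 2978 and 3505 to 718 and 937 CPM and EXG1, a glucanase, from 500 and 782 to 78.9 and 73 CPM, while TIR1, a cold shock mannoprotein, rose from 16.1 and 18.8 to 91.2 and 61 CPM.

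**Figure D2:**
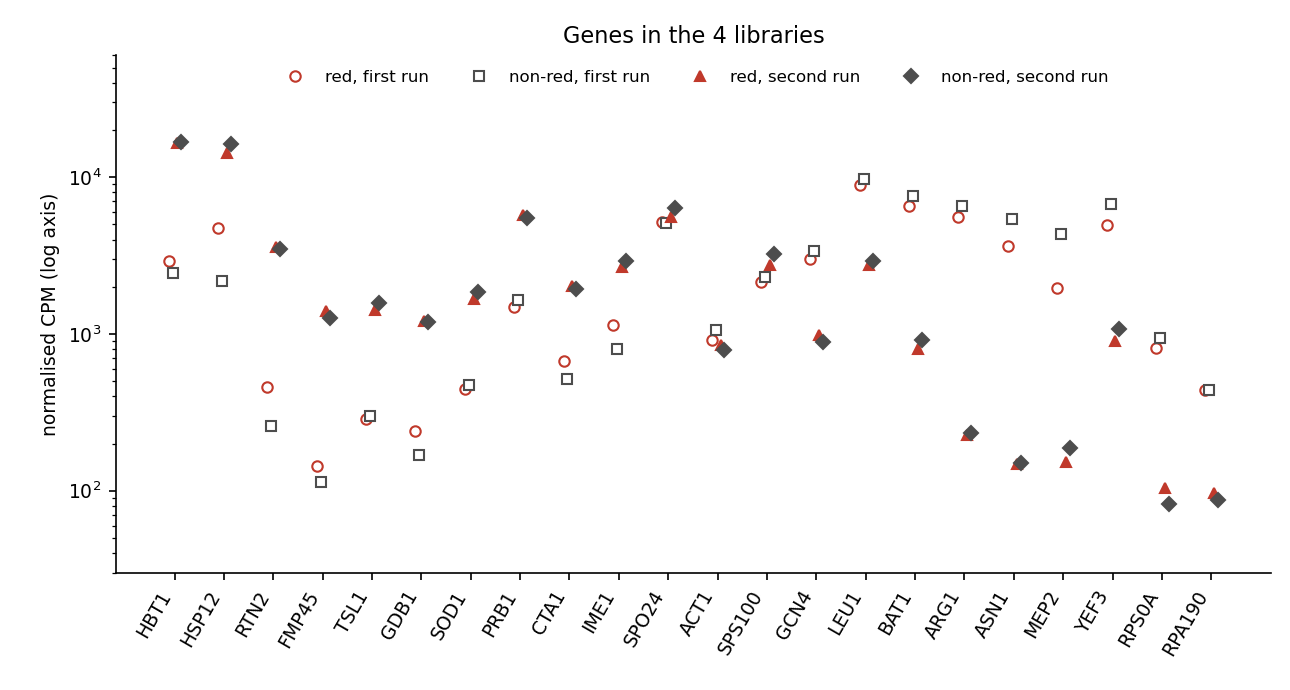
Normalised CPM on a log axis of 22 genes in the 4 libraries, with open symbols for the first run and filled symbols for the second. Genes from HBT1 to IME1 lay higher in both libraries of the second run, SPO24, ACT1 and SPS100 did not pass the test, and genes from GCN4 to RPA190 lay lower in both.

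Most genes of the quiescence and desiccation lists were higher in the second run. Of 33 genes known from quiescent and stationary phase cells, 22 were higher and 2 lower, with a median of 1.51, and of 28 hydrophilins and other small proteins of desiccation tolerance, 17 were higher and 1 lower, with a median of 1.30. The lists share members. HBT1, a hydrophilin, was the most abundant transcript over all libraries, at 2931 and 2432 CPM in the first run and 16520 and 16884 CPM in the second (2.65 ± 0.15, adjusted p = 8.3e-05). The hydrophilins SIP18 and GRE1 went from 1109 and 770 to 4959 and 5385 CPM and from 908 and 984 to 4166 and 3907 CPM. FMP45, a membrane protein of the Sur7 family required for sporulation, rose 10.4-fold, from 143 and 114 to 1396 and 1272 CPM (3.38 ± 0.21, adjusted p = 9.72e-05). RTN2, a reticulon, and RTC3, a small stress-induced protein, rose from 457 and 259 to 3594 and 3492 CPM and from 13.4 and 13.3 to 342 and 202 CPM. HSP12, a membrane-stabilising heat shock protein of both lists, was the second of the 5 most abundant, and its first-run libraries differed from each other, with 4754 CPM in red and 2171 CPM in non-red spores, yet both lay below the 14272 and 16216 CPM of the second run (2.24 ± 0.28, adjusted p = 0.00101). YRO2 was the hydrophilin list member that fell (111 and 108 to 48.9 and 33.3 CPM, adjusted p = 0.0232). YNL134C, YMR090W and the mitochondrial outer membrane protein OM45, which are in none of the lists, were among the 12 rises with the smallest p. YNL134C went from 111 and 114 to 669 and 800 CPM, and YMR090W and OM45 rose by 2.76 and 2.68 on the log2 scale.

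Part of the reserve carbohydrate genes were higher. Of 10 trehalose genes 6 were higher and 1 lower, with a median of 1.52. TSL1, TPS1 and TPS2, subunits of the trehalose synthase complex, went from 286 and 300 to 1431 and 1575 CPM, from 266 and 182 to 1023 and 937 CPM and from 307 and 322 to 969 and 845 CPM. ATH1, an acid trehalase that breaks trehalose down, also rose (125 and 129 to 433 and 438 CPM, adjusted p = 0.00106), a gene of breakdown beside those of synthesis. PGM1, a phosphoglucomutase, was the trehalose list member that fell (adjusted p = 0.038). Of 14 glycogen genes 5 were higher and the others were not called, with a median of 0.94. GDB1, the glycogen debranching enzyme, rose from 242 and 169 to 1215 and 1198 CPM and GLC3, the branching enzyme, from 136 and 118 to 462 and 512 CPM.

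Antioxidant enzymes were higher or not called. Of 40 tested, 19 were higher and 21 were not called, with a median of 0.84. AHP1, a peroxiredoxin, went from 283 and 303 to 1304 and 1518 CPM (2.26 ± 0.20, adjusted p = 0.000226). SOD1 and SOD2, the cytosolic and mitochondrial superoxide dismutases, rose by 1.93 and 2.04 on the log2 scale. CTT1, the cytosolic catalase, had the highest level of the list and the widest gap between colours in the first run, with 665 CPM in red and 254 CPM in non-red spores, against 3035 and 3289 CPM in the second. Heat shock chaperones were split, with 13 of 36 higher and 5 lower. Those that fell included SSB1 and SSB2, ribosome-associated chaperones that help nascent proteins to fold and whose sequences overlap too far for their reads to be told apart (1394 and 1929 to 425 and 344 CPM for SSB2), and HSP150, a secreted wall protein (1973 and 2885 to 464 and 254 CPM).

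Among genes of degradation and recycling the counts differed by list. Of 14 genes listed as vacuolar proteases and their inhibitors 8 were higher and the rest not called, with a median of 1.03. That list also held the trehalase ATH1, 1 of the 8 that were higher. PRB1, vacuolar proteinase B, rose from 1487 and 1658 to 5757 and 5492 CPM (1.84 ± 0.17, adjusted p = 0.000281), and PAI3 and TFS1, inhibitors of proteinase A and of carboxypeptidase Y, rose by 3.11 and 2.14 on the log2 scale. Of 34 core autophagy genes 14 were higher and 1 lower, with a median of 0.90. ATG8, the ubiquitin-like protein of the autophagosome membrane, went from 103 and 90.5 to 253 and 294 CPM. ATG1, the kinase that starts autophagy and the most abundant of them, was at 702 and 658 CPM and at 716 and 832 CPM (adjusted p = 0.579), and ATG41, a partner of the autophagy protein Atg9, fell from 742 and 929 to 180 and 142 CPM. Of 35 proteasome genes 6 were higher and the rest not called, with a median of 0.60. They included RPN4, the transcription factor that controls the proteasome genes (277 and 344 to 565 and 591 CPM, adjusted p = 0.0163), and BLM10, a proteasome activator (533 and 453 to 1284 and 1119 CPM). Of 16 eisosome and Sur7 family genes 9 were higher and PUN1, a plasma membrane protein of nitrogen stress, was lower (219 and 225 to 97.7 and 41 CPM). Eisosomes are furrows of the plasma membrane, and their core protein genes LSP1 and PIL1 rose by 2.24 and 1.08 on the log2 scale.

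In carbon metabolism genes of 1 pathway were called in both directions. Over all genes 8.96% were higher and 9.87% lower. Of 45 genes of fatty acid oxidation and the peroxisome 11 were higher and 2 lower, with a median of 0.63. CTA1, the peroxisomal catalase, went from 672 and 513 to 2017 and 1942 CPM, and FOX2 and POT1, enzymes of beta-oxidation, rose by 1.37 and 1.42 on the log2 scale. Of 22 genes of gluconeogenesis and the glyoxylate cycle 8 were higher and 1, the malic enzyme MAE1, was lower. ACS1, an acetyl-CoA synthetase, rose from 770 and 638 to 2104 and 1998 CPM and ADR1, the transcription factor of nonfermentable carbon genes, from 360 and 384 to 1081 and 1046 CPM. Paired enzymes went in opposite directions in the pentose phosphate pathway, where the transketolase TKL1 fell from 290 and 384 to 54.9 and 43.5 CPM and its paralog TKL2 rose from 196 and 61.3 to 932 and 1034 CPM. The mitochondrial aldehyde dehydrogenases did the same: ALD4 rose from 976 and 605 to 3388 and 3552 CPM and ALD5 fell by 3.03 on the log2 scale from 1763 and 2400 CPM. In glycolysis TDH3 was not called (2878 and 3137 against 3202 and 2519 CPM) and FBA1, the aldolase, fell by 1.28 on the log2 scale. By counts, 5 of 22 glycolytic genes were higher (22.7%) and 2 lower. Of 23 genes of the tricarboxylic acid cycle 5 were higher and 5 lower (21.7% each), and of 27 ergosterol genes 6 were higher (22.2%) and 1 lower. The median levels of these lists, 475, 309 and 278 CPM, lie in the most abundant of 5 bins of all genes. In that bin 24.5% were called higher and 24.8% lower. Of 14 pentose phosphate genes 6 were higher and 3 lower. Alcohol and aldehyde dehydrogenases had 7 of 19 higher and 4 lower, and storage lipid genes 4 of 18 higher and 3 lower. Respiratory genes had 9 of 41 higher and 2 lower, among them NDE2, an external NADH dehydrogenase (213 and 163 to 1009 and 1089 CPM), and STF2, which acts with the ATP synthase inhibitor (50.9 and 34 to 365 and 289 CPM). Of the genes encoded in the mitochondrial DNA 5 of 10 passed the filter on low counts, and the 2 rRNAs fell, 21S_RRNA from 506 and 549 to 53.9 and 14.9 CPM and 15S_RRNA from 102 and 142 to 1.21 and 6.52 CPM. Poly(A)-directed libraries may not measure these rRNAs evenly, and how much of the fall reflects the preparation was not tested.

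**Figure D3:**
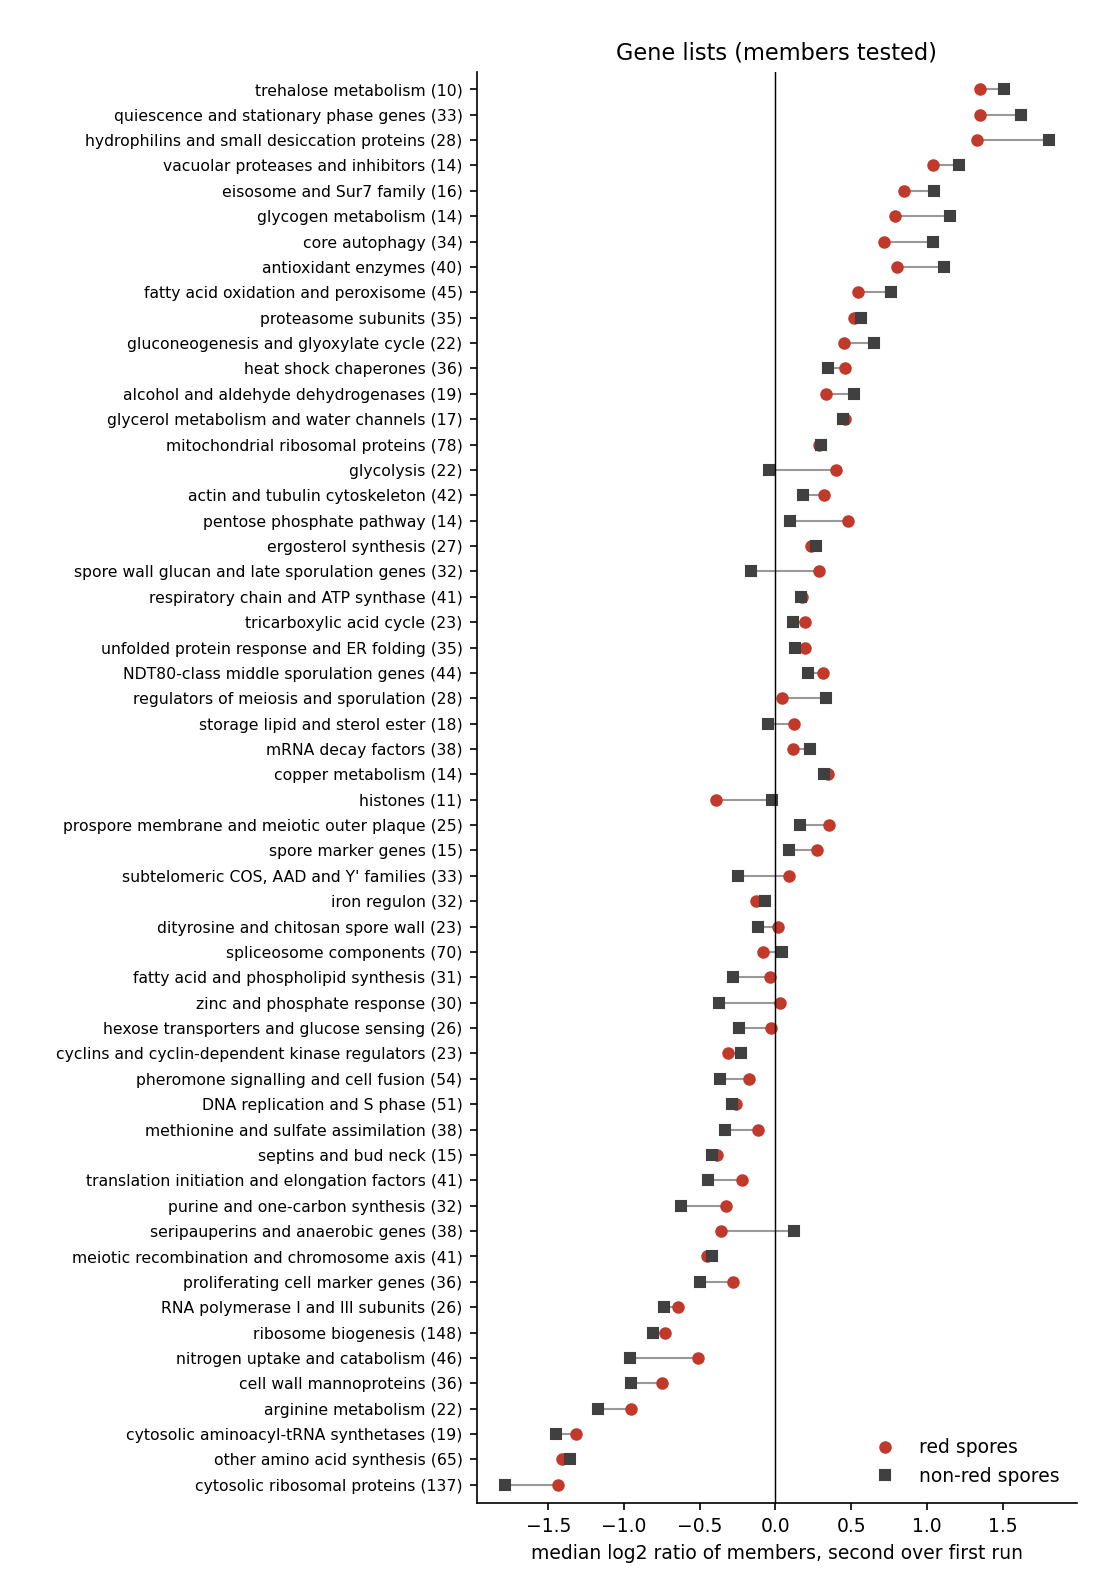
Median log2 ratio of the second over the first run among the members of each gene list, in red spores (circles) and non-red spores (squares), for lists with at least 10 tested members and a median level of at least 10 CPM. The number of members tested is in parentheses. In both colours ribosomal proteins, amino acid synthesis and tRNA synthetases have the lowest medians, and trehalose, quiescence and hydrophilin genes the highest.

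Calls in the lists of the sporulation programme are read against 8.96% higher and 9.87% lower over all genes. Among 44 genes of the middle phase controlled by Ndt80, 3 were higher (6.82%) and 1 lower (2.27%), with a median of 0.18 (0.32 in the red pair and 0.21 in the non-red pair). Their median level of 28.6 CPM lies in the least abundant of 5 bins of all genes, where 0.342% were called higher and 1.45% lower. Of 25 genes of the prospore membrane and meiotic outer plaque, which build the envelope around each nucleus, 2 were higher. The dityrosine and chitosan layers of the spore wall had 2 of 23 genes higher and 2 lower, and 32 genes of spore wall glucan and late sporulation had 6 higher (18.8%) and 3 lower (9.38%). The late genes that rose included DDR2, a stress gene and the most abundant of them (3664 and 3158 to 6297 and 6774 CPM), SPG4, a stationary phase gene (583 and 292 to 1448 and 1724 CPM) and AMS1, a vacuolar mannosidase (299 and 197 to 713 and 798 CPM), all of which are also known outside sporulation, and GAS5, a wall glucan enzyme, fell from 382 and 493 to 152 and 120 CPM. Of 41 genes of recombination and the chromosome axis 2 were lower, with a median of -0.48 and a median level of 27.4 CPM. Of 15 spore markers tested, 1 was higher. SPO24, a sporulation gene among the 5 most abundant transcripts, was at 5144 and 5139 CPM in the first run and at 5543 and 6384 CPM in the second (0.21 ± 0.15, adjusted p = 0.397), and SPS100 was at 2151 and 2297 CPM and at 2768 and 3238 CPM (adjusted p = 0.121).

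Regulators of meiosis and sporulation were called in both directions, and their list did not meet the rule for description. Of 28 regulators 4 were higher (14.3%) and 3 lower (10.7%), against 8.96% and 9.87% over all genes. Their median level of 156 CPM was above that of all genes (93.3 CPM), and calls were more frequent at higher levels. IME2, the kinase that acts with Ime1 early in meiosis and was named after its values were seen, fell from 152 and 119 to 61.6 and 24.1 CPM (-1.80 ± 0.36, adjusted p = 0.00984), in the direction opposite to IME1. NDT80 itself had 41.3 and 12.1 CPM in the first run and 12.7 and 21.3 CPM in the second, with opposite signs in the pairs and no call. GIS1, a transcription factor of the quiescence programme, rose from 412 and 273 to 878 and 1081 CPM. MSN4 was at 179 and 184 CPM and at 261 and 208 CPM (adjusted p = 0.374). GIS1, MSN4, NDT80 and SPS100 were also named after their values were seen. GPD1, whose promoter drives mCherry in the cassette, rose from 274 and 201 to 690 and 519 CPM. ACT1, the actin gene, was at 916 and 1062 CPM and at 848 and 787 CPM (-0.27 ± 0.19, adjusted p = 0.392).

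Of 36 markers of proliferating cells 4 were lower (11.1%, near the 9.87% of all genes) and the rest were not called, with a median of -0.65. CLN3, the G1 cyclin, went from 78.8 and 78.5 to 8.89 and 21.3 CPM, POL2, a DNA polymerase subunit, from 129 and 137 to 28.9 and 23.3 CPM, and MCM7, a subunit of the replicative helicase, from 114 and 136 to 47.4 and 49.7 CPM. HTB1, a histone H2B gene, fell by 0.75 on the log2 scale. Of 51 genes of DNA replication and S phase 2 were lower and 49 were not called.

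**Figure D4:**
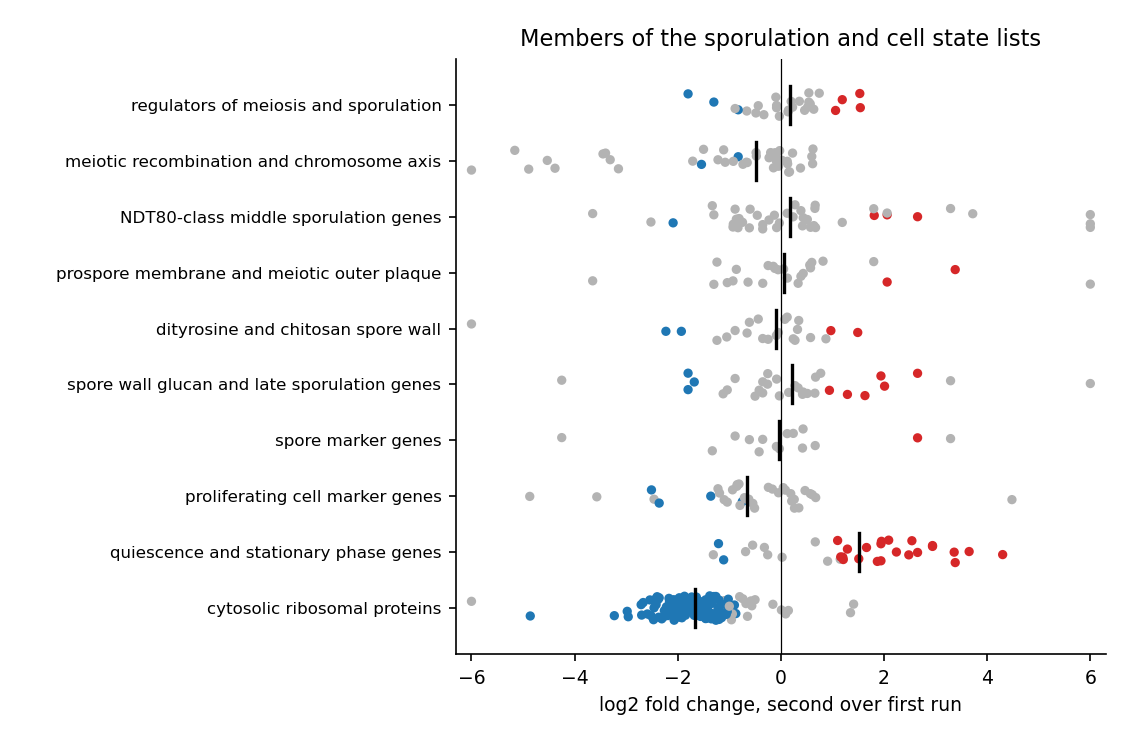
Log2 fold change of the second over the first run for each tested member of 10 lists, with values beyond 6 drawn at the edge, genes called higher in red, genes called lower in blue and genes not called in grey. Black bars are list medians. The sporulation lists centre between -0.48 and 0.21, while the quiescence genes centre at 1.51 and the ribosomal proteins at -1.67.

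Of the 60 lists counted, 34 met the rule for description, 22 of them by their median and the others only by their share of calls. That share was set against all genes and not against genes of a similar level. The medians of the other 26 lists lay between -0.48 and 0.30. Together the 60 lists held 203 of the 550 genes called higher and 383 of the 606 called lower, so 347 of the rises lay outside every list. Ribosomal proteins made up most of the intron-containing genes that fell. Among genes called lower 14.5% have an intron, against 4.6% of all tested, and without the ribosomal proteins these shares were 2.49% and 3.15%. Calls were more frequent at higher levels, with 24.5% of genes higher and 24.8% lower in the most abundant of 5 equal bins by mean CPM against 0.342% and 1.45% in the least abundant. Across 5 bins of GC content the median log2 fold change lay between -0.185 and 0.26, highest in the most AT-rich bin, and across 5 bins of gene length between -0.12 and 0.08. Of 299 transfer RNA genes 27 passed the filter, at a median level of 2.28 CPM, and they were not called.

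Promoter sequence was read for each gene from the R64 reference, from 250 bases before to 50 bases after the start of the gene, on both strands. The stress response element (CCCCT), the binding site of Msn2 and Msn4, was found in 254 of 547 promoters of genes called higher (46.4%) and in 85 of 599 of genes called lower (14.2%), against 21.6% of all tested and 1361 of 6476 promoters read. The RRPE (AAAATTTT) and the PAC (GATGAG), elements known from ribosome biogenesis genes, were in 120 and 150 of those 599 promoters of genes called lower, in 21 (3.84%) and 75 (13.7%) of the 547 called higher, and in 538 (9.19%) and 1168 of all 5852 tested. The Gcn4 site (TGACTC) was in 13.4% of promoters of genes called lower, 8.78% of those called higher and 8.17% of all tested, and in 33 of 65 promoters (50.8%) of amino acid synthesis genes. None of these 4 elements contains another, and a match is a description of sequence and not of binding. Read the other way, 31.6% of genes with at least 2 stress response elements were called higher, against 18.3% with 1 and 6.39% with none, and the same numbers for the share called lower with the RRPE were 42.5%, 20.7% and 9.01%. Among the other elements searched, the Rpn4 site (GGTGGCAAA) was in 2.01% of promoters of genes called higher, 0.167% of those called lower and 1.2% of all tested. It was in 27 of 35 proteasome promoters (77.1%), though only 6 of the 35 genes were called higher. The URS1 (TAGCCGCC) and the core of the middle sporulation element (CACAAAA), both used in sporulation, were in 0.914% and 8.23% of promoters of genes called higher and in 1.16% and 7.76% of all tested. The heat shock element (TTCNNGAA) was in 12.8% of promoters of genes called higher and 12.9% of all tested.

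**Figure D5:**
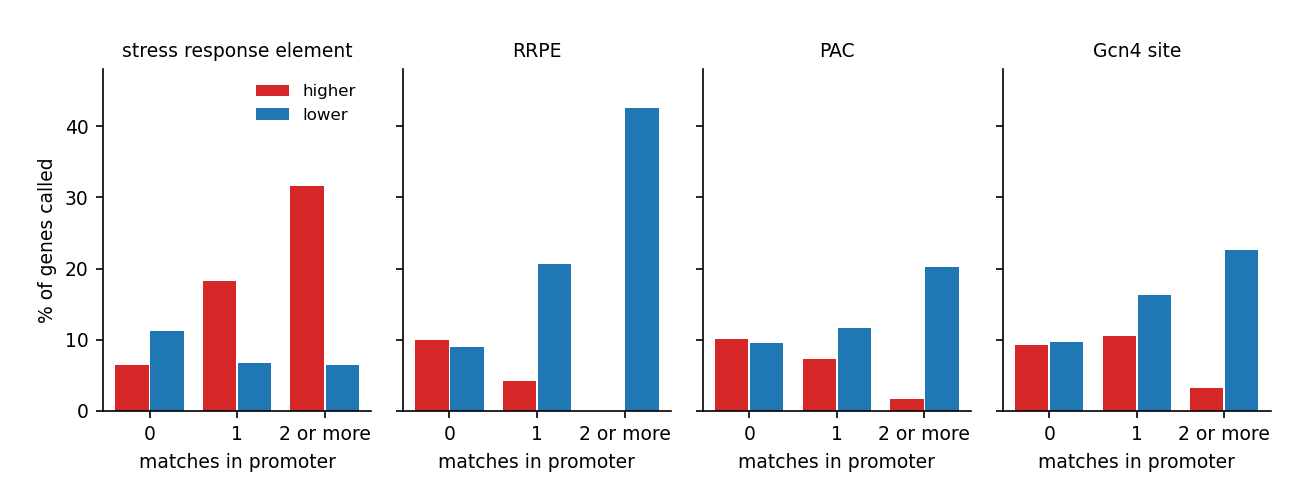
Percent of tested genes called higher (red bars) and lower (blue bars) in the second run by the number of matches to 4 sequence elements in the promoter. With 2 or more stress response elements 31.6% of genes were higher, and with 2 or more RRPE matches 42.5% were lower.

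The promoters below belong to the 2 genes with the smallest p among those called higher with at least 3 stress response elements, called lower with at least 2 Gcn4 sites, and called lower within ribosome biogenesis with both the RRPE and the PAC. They are shown as examples of the elements described above, from RefSeq R64 and written 5′ to 3′ along the gene. Capitals mark, on either strand, only matches to the elements for which a gene was chosen. Any match to another element is left in lower case. TSL1, a trehalose synthase subunit (chrXIII:70374-70673, plus strand), has 3 matches to the stress response element, and YGR130C, an eisosome-associated protein named by this choice (chrVII:753795-754094, minus strand), has 3 as well and went from 236 and 207 to 1045 and 975 CPM.
TSL1: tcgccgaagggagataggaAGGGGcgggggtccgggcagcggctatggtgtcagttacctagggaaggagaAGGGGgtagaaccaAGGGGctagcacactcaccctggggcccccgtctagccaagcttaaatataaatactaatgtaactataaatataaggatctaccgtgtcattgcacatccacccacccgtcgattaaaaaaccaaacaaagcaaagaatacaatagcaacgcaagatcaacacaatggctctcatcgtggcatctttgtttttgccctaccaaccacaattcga
YGR130C: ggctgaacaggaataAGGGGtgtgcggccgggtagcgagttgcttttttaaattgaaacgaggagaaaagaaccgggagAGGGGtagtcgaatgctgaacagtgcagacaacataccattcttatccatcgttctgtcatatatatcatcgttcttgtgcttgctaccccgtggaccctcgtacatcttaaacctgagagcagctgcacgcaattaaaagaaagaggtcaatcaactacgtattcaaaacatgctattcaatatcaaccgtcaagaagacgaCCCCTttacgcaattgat
The Gcn4 sites are shown in ARG56, of ornithine synthesis (chrV:295160-295459, plus strand), and HIS4, of histidine synthesis (chrIII:68284-68583, minus strand).
ARG56: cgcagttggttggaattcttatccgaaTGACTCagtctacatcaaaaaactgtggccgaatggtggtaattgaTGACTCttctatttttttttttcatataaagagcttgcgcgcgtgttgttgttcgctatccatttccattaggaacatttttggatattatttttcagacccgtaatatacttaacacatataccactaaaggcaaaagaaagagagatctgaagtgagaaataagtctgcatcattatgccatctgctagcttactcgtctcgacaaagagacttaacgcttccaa
HIS4: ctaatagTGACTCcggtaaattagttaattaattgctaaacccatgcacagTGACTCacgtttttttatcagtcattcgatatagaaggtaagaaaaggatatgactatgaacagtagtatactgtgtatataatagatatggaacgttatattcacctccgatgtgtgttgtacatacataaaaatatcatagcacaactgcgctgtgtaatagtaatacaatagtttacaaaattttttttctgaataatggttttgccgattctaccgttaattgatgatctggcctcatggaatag
The RRPE and PAC are shown in UTP20 (chrII:227386-227685, plus strand) and REA1 (chrXII:363689-363988, minus strand).
UTP20: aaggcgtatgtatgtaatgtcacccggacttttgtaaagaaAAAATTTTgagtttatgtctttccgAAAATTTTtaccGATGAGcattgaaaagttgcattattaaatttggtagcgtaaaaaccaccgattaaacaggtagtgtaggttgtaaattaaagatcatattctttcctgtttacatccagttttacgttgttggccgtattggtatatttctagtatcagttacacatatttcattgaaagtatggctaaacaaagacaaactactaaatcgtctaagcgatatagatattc
REA1: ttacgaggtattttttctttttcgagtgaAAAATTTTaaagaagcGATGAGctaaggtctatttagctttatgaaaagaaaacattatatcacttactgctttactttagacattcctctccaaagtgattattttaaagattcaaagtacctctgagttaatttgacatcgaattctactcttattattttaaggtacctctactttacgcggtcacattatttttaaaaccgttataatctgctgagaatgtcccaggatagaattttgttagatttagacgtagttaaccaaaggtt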

How the data were processed

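RNA-seq was made from 4 sorted spore fractions. Per the submitters' processing notes and the methods, read pairs were aligned by STAR 2.7.3a to the R64 genome plus the mCherry and hph sequences and counted with featureCounts of Subread, and the authors deposited estimated counts per gene that were not normalised. Between 61.7% and 69.3% of the non-zero values were fractional, so they were rounded, where the planned design had assumed whole counts. How multi-mapping reads, overlapping genes, strand and duplicates were treated is not given in the sources used here.

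Of 7132 features, 6147 matched the reference annotation. Counts were filtered with filterByExpr by run, scaled with TMM and tested in edgeR 4.0.16 (R 4.3.3) by the quasi-likelihood test, with spore colour and run as terms and Benjamini-Hochberg adjustment. The study fitted a generalised linear model with a batch term in edgeR, and which test it used is not given in the sources used here. A call needed FDR under 0.05 and the same sign in both pairs. The fit had 1 residual degree of freedom, with the spread shared across genes. Ratios within a pair added 0.5 CPM. The floor of 3 counts covers counting error only.

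Genes were named by rule: in each direction the 12 of smallest p with a mean of at least 10 CPM, in each described list up to 4 members with the smallest p, its most abundant member and the one furthest against its median, the cassette genes, GPD1, IME1, the CUP1 copies and ACT1, and the 5 most abundant genes. A list was described where its median differed by at least 0.5 from that of all genes or its share of calls in 1 direction was at least 2 times theirs. Not every gene so named is printed, and some are not reported here. GCN4, IFH1, GIS1, MSN4, NDT80, IME2, SPS100, RRT15 and YGR130C were chosen after their values were seen. Lists, members and tests were chosen with earlier results of these data known. Alternatives were the likelihood ratio test, DESeq2 1.42.0, other scalings, filters and thresholds, unrounded values, no replicate block and leaving out each library, with thinning and a GC correction added after the data were seen. Python 3.11.15, pandas 2.3.3 and matplotlib 3.10.9 made tables and figures.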

Additional observations from a re-analysis of the deposited data

Results flagged for a closer look

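mCherry went in opposite directions in the pairs, with a log2 ratio of the second over the first run of 1.24 in red spores (217 to 514 CPM) and -4.7 in non-red spores (12.5 to 0 CPM). RRT15, a small gene on chromosome XII, did so as well, with -3.32 in red spores (242 to 23.8 CPM) and 5.29 in non-red spores (241 to 9421 CPM), and it was singled out after its values were seen. With 1 library for each run and colour neither difference was tested. Among genes with a mean of at least 10 CPM, 36 differed by at least 2-fold in opposite directions, 34 of them with a mean under 50 CPM.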

How the results depend on the processing

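There were 1156 calls with the block and 1266 with no replicate block, that is with spore colour left out, of which 1124 were shared, and 1604 and 1490 with the likelihood ratio test and DESeq2. At FDR under 0.01 there were 584 calls (243 higher, 341 lower). Leaving out 1 library at a time gave 598 to 1286 calls (275 to 542 higher, 323 to 744 lower), and the fewest came without the non-red library of the first run. After every library was thinned to the same total, a setting chosen after seeing the data, 1163 were called and 1150 of these were shared. Genes different in both pairs numbered 1989 at 1.5-fold (906 higher, 1083 lower) and 253 at 4-fold (86 higher, 167 lower), against 1054 at 2-fold. Scalings moved the median of all genes by at most 0.049 on the log2 scale. Of 1600 alternative fits of the 160 named genes that were called, 1545 kept the call and direction, and 55 lost the call, 54 of these with a library left out. Without the non-red library of the first run 21 lost it (adjusted p 0.0544 to 0.174), among them ALT2, ARG82, CLN3, HTB1, IME2, MCM7, MTD1, PGM1, PUN1, RPO31, TIR1, TSR3 and YRO2, without the red library of the first run 15 did (0.0569 to 0.271), RPN4 with them, without the second non-red library 12 (0.052 to 0.178), DDR2 with them, and without the second red library 6 (0.0505 to 0.0794). RRT15, not called with all libraries, reached -3.34 without the second non-red library and 5.29 without the second red one. Of 22 lists with a median at least 0.5 from that of all genes, the sign changed only for transfer RNAs (from -0.92 to 2.01 with a minimum of 10 CPM). With GC content taken out in 20 bins, also chosen after seeing the data, the medians of ribosomal proteins, amino acid synthesis and quiescence genes were -1.61, -1.20 and 1.71. The cause of these shifts was not tested.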

Other observations

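A scan of annotated functions with experimental evidence and at least 10 tested genes, made after the data were seen, gave counts for 589 terms, some of which share genes with the lists above. Over all genes 8.96% were higher and 9.87% lower. Glutathione metabolism had 6 of 10 genes higher in the second run, with a median log2 fold change of 1.09 (1.03 in red and 1.03 in non-red spores), the peroxisomal matrix 6 of 12 (median 1.16), and negative regulation of gluconeogenesis, whose members mark enzymes of glucose synthesis for destruction, 5 of 10 (median 0.90). Proteins of the synaptonemal complex assembly, which joins homologous chromosomes in meiosis, had 3 of 15 lower, with a median of -0.92 (-0.91 in red and -0.83 in non-red spores). Other meiotic terms lay nearer 0: reciprocal meiotic recombination had 2 of 46 genes higher and 4 lower (median -0.11), and homologous chromosome pairing had 12 genes tested and a median of -0.14. Among terms of spore formation, ascospore formation had 11 of 52 genes higher and 0 lower (median 0.17). Sporulation resulting in formation of a cellular spore had 4 of 11 higher and 1 lower (median 0.69). Ascospore wall assembly had 4 of 45 higher and 2 lower (median -0.03). No term was tested for enrichment.

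The transcribed spacers of the ribosomal RNA precursor, which are cut away as ribosomes are made, held 747 CPM in red and 789 CPM in non-red spores of the first run and 415 and 194 CPM in the second, out of the total reads of each library. Poly(A)-directed libraries do not measure these RNAs evenly, and how much of this reflects the preparation was not tested.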
